A study of Mus musculus with 16 samples.

Results

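Endothelial identity and adhesion genes were followed in whole skin of 7-week-old mice treated on its surface with sodium dodecyl sulfate (SDS), an irritant detergent, with and without Topsym. The 10 genes were taken by symbol from the 32078 genes of the deposited table, 5 that mark the identity of blood vessel cells (Cdh5, Pecam1, Kdr, Tek and Vwf) and 5 that serve the capture of leukocytes (Sele, Selp, Icam1, Vcam1 and Ackr1). All 10 had a row and passed the filter on low values. The 16 libraries formed 8 groups of 2, SDS at day 0, day 1, day 3 and day 5, each without or with Topsym. All 8 groups carry SDS in their titles, and no group without SDS was sampled at a later day. Strain and sex, when each agent was first applied, and what the Topsym group at day 0 had received are not given in the sources used here. The labels give topical treatment over 4 days although the titles run to day 5. Topsym is known as a preparation of fluocinonide, a strong topical glucocorticoid, which is background knowledge and not in the labels.

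Endothelial cells line blood vessels, hold to each other through VE-cadherin and PECAM, and read growth and rest signals through receptors for VEGF and the angiopoietins. When skin is inflamed, venular endothelium displays selectins that slow passing leukocytes, then integrin ligands that arrest them, while an atypical receptor carries chemokines to the vessel surface. Inflammatory cytokines induce the selectins and integrin ligands, in part through the transcription factor NF-kB, and glucocorticoids are known to lower them.

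The sequence before the start of 4 adhesion genes and of Kdr is shown because these genes moved differently, and to let their letters be read beside their values. RefSeq's GRCm38.p6 table matched 6 of the 10 genes (Kdr, Tek, Sele, Selp, Icam1 and Ackr1). Each window is the 250 bases before the start annotated by RefSeq, 5′ to 3′ on the strand of the gene, and capitals mark every match to a motif searched on both strands. GENCODE M21 places Ackr1 at 173331886 to 173333750, so most of its window lies inside the gene in that annotation.
Sele, chr1:164047984-164048233, plus strand: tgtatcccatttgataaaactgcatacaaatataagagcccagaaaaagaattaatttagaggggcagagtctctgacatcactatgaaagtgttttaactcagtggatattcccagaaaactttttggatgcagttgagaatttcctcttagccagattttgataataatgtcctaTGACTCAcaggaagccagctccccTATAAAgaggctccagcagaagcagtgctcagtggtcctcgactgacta
Selp, chr1:164115014-164115263, plus strand: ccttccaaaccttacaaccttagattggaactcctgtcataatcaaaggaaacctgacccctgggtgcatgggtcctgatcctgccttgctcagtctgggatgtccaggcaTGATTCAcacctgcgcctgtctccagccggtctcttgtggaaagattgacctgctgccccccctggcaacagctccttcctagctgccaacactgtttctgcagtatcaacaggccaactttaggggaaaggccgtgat
Icam1, chr9:21015690-21015939, plus strand: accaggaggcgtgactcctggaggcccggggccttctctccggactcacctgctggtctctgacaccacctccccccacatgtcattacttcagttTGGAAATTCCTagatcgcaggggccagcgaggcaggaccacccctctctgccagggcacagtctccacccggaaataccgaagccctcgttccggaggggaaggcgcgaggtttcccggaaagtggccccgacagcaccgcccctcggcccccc
Ackr1, chr1:173333504-173333753, minus strand: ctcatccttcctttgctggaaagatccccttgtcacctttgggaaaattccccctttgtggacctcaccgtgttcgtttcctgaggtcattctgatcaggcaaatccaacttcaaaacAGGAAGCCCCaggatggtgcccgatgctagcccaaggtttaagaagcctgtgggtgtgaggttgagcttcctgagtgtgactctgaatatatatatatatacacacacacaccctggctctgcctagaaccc
Kdr, chr5:75978456-75978705, minus strand: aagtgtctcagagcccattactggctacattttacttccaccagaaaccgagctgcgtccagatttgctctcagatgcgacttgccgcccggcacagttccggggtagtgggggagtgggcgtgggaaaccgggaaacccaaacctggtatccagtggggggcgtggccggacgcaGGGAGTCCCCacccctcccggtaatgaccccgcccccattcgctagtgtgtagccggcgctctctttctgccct

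The Sele window, of the endothelium-restricted selectin, held a TATA box (TATAAA) 49 to 44 bases before the start and an AP-1 motif (TGANTCA) 73 to 67 bases before it. The Selp window held an AP-1 motif at 139 to 133 and no TATAAA. The NF-kB motif (GGGRNWYYCC) matched in the Kdr window at 74 to 65. In these letters R is A or G, Y is C or T, W is A or T, and N is any base. A second form of the NF-kB motif (HGGARNYYCC, where H is A, C or T), added after the windows had been seen, matched in Ackr1 at 132 to 123 and in Icam1 at 154 to 145 and, on the other strand and overlapping, at 153 to 144. Neither form matched in the Sele or Selp window, and NF-kB sites with other letters were not searched. No motif searched matched in the Tek window, and the glucocorticoid response element (GNACA, any 3 bases, TGTNC) matched in none of the 6. Of 32851 windows of this length, 12.4% held TATAAA, 6.75% the AP-1 motif, 3.9% the NF-kB motif, 6.94% its second form and 0.387% the glucocorticoid element. These are matches of letters in a short window, and binding was not measured.

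Library sizes ran from 15199656 to 32066246 recovered reads. The 4 day 5 libraries stood apart, with 19885 to 20774 genes above 0 against 22875 to 23740 in the others. Their normalised values summed to 25800000 to 30700000 against 20300000 to 21700000. Scaling to the total reads of a library in place of the deposited size factors moved the median of all genes at day 5 against day 0 from -0.09 to -0.43 on the log2 scale without Topsym, and from -0.08 to -0.66 with it. The labels do not say whether both libraries of a group are from different mice, so the p-values cover no more than the spread between libraries, which may be technical. Levels are normalised reads (reads divided by a size factor of the library), given for both libraries of a group in replicate order. Differences are of log2(normalised reads + 1), with a standard error (SE) and limma's adjusted p over all 19189 genes tested, and a gene is called past an adjusted p of 0.05. Differences from day 0 combine SDS with time and with the tissue sampled, which cannot be told apart, and later days share the day 0 libraries of their arm.

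At day 0 of SDS alone, the order of levels per kilobase of exon was Ackr1 (620.7 ± 14.3 normalised reads per kilobase, SD, n = 2), Icam1 (186.7 ± 1.04), Pecam1 (126 ± 2.43), Cdh5 (125 ± 4.53), Tek (115 ± 13.8), Kdr (55.4 ± 0.638), Vwf (25.7 ± 0.832), Vcam1 (13.5 ± 0.167), Sele (8.67 ± 0.579) and Selp (6.33 ± 1.33). Pecam1, Cdh5 and Tek lay within each other's spread. Every other neighbour in this order was apart by more than the SDs of the pair added together. Both selectins were thus the least abundant of the 10 per unit length before the later days. By day 3 of SDS alone Cdh5 led at 639.7 per kilobase, followed by Ackr1 at 566.7 and Pecam1 at 528.5, and Selp, at 161, had come close to Tek, at 168.

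**Figure D1:**
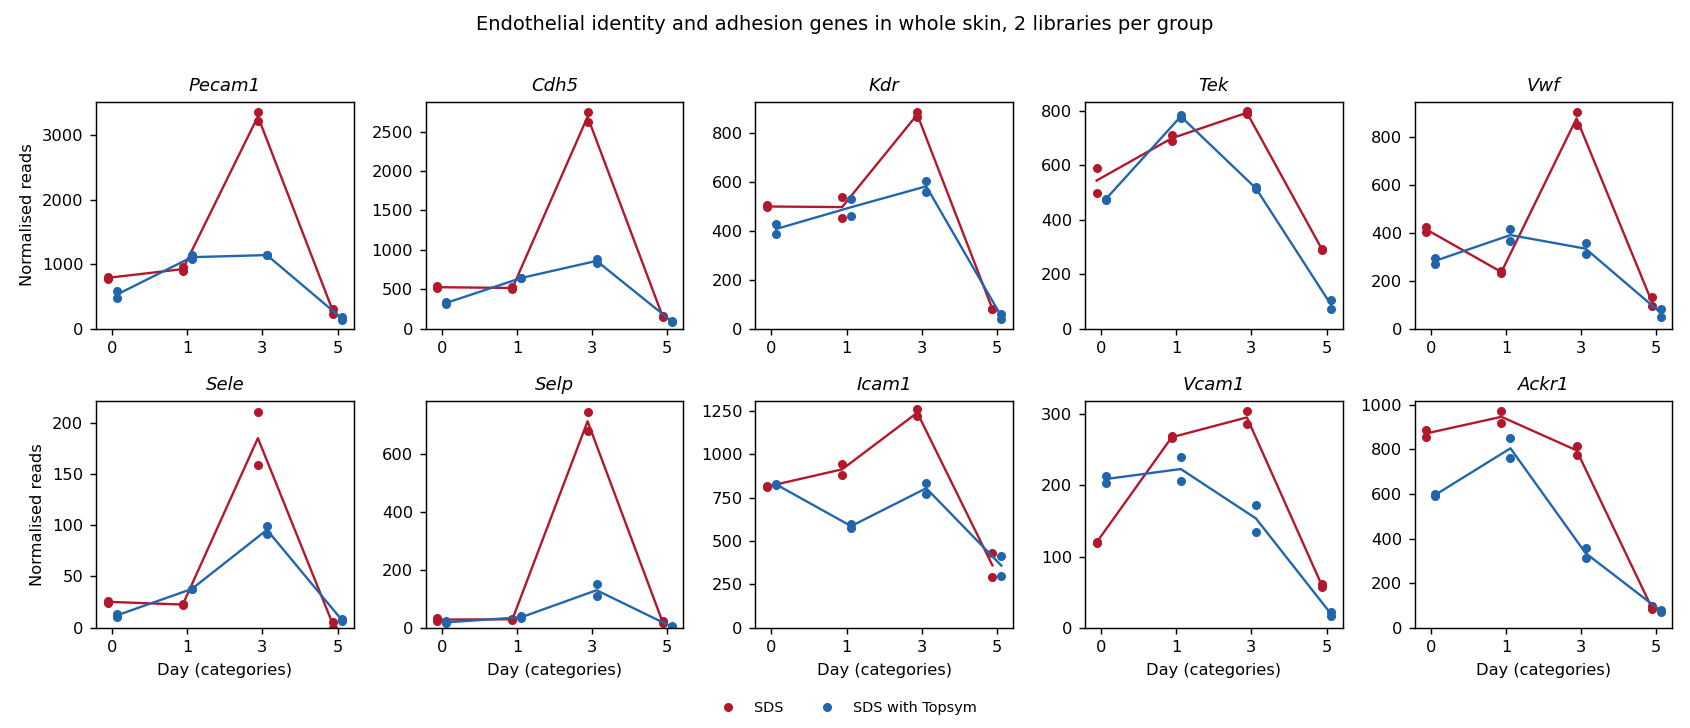
Normalised reads of the 10 genes (vertical axes, each from 0) at days 0, 1, 3 and 5 (horizontal axes, days drawn as evenly spaced categories), in red for SDS and blue for SDS with Topsym. Points are libraries and lines join the means of 2 libraries; Cdh5 in SDS alone stands at 2629 and 2749 at day 3 against 538 and 511 at day 0.

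At day 1 of SDS alone, Vcam1, an integrin ligand, rose. Vwf, the platelet-binding protein that endothelium stores and releases, fell. These were the 2 of the 10 genes called, a share near the 26.2% of all genes tested (12.8% higher and 13.5% lower). The other 8 differed from day 0 by -0.15 to 0.37 without a call, at a median over all 10 of 0.09 beside -0.03 for all genes. Both Vcam1 libraries stood at 266 and 269, above both at day 0, at 119 and 121 (log2 1.15, SE 0.20, adjusted p = 3.77e-04). Vwf stood at 232 and 239, below both day 0 libraries at 423 and 404 (log2 -0.81, SE 0.20, adjusted p = 0.00686). Tek differed by 0.37 without a call (adjusted p = 0.0593), and was called with edgeR's count test (0.38, adjusted p = 0.00618) and with DESeq2's (0.36, adjusted p = 0.00608). Pecam1 differed by 0.23 without a call (adjusted p = 0.24). When limma's fit held only the libraries compared, both Pecam1 (adjusted p = 0.0441) and Tek (adjusted p = 0.00881) were called.

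At day 3 of SDS alone the vascular genes rose together: 9 of the 10 were higher than at day 0 and none was lower, against 25.4% of all genes higher and 24.2% lower (49.6% called either way). Their median difference was 1.19, beside -0.01 for all genes. Identity genes rose for 5 of 5 and adhesion genes for 4 of 5, and Ackr1 was the gene without a call. In whole skin, more vessel cells and more RNA of a gene in each vessel cell cannot be told apart, and the same holds for falls.

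Cdh5, which encodes the cadherin that holds endothelial cells together, stood at 538 and 511 at day 0, 502 and 528 at day 1, 2629 and 2749 at day 3, and 159 and 144.5 at day 5. The day 3 libraries were the highest of the arm by a wide margin, day 0 and day 1 overlapped, and day 5 lay below all others. The mean was 5.12-fold higher at day 3 than at day 0 (log2 2.36, SE 0.10, adjusted p = 5.84e-12). Pecam1, an adhesion molecule of the same junctions that leukocytes and platelets also carry, had values of 775 and 797, 958 and 887, 3361 and 3222, and 228 and 303 over the same days. It followed the same course, with no overlap between days, and was 4.19-fold higher at day 3 (log2 2.06, SE 0.13, adjusted p = 1.38e-09).

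The receptor genes rose less. Kdr, the main signalling receptor for VEGF, stood at 496 and 504, 454.5 and 541, 887 and 866, and 81.1 and 79.4 at days 0, 1, 3 and 5. Its day 0 libraries lay between those of day 1, and both day 3 libraries lay above them (log2 0.81, SE 0.17, adjusted p = 6.72e-04). Tek, the angiopoietin receptor Tie2, stood at 498 and 589.8, 709.9 and 688, 798 and 788, and 287 and 293. The groups did not overlap, and the rise at day 3 was 1.46-fold (log2 0.55, SE 0.14, adjusted p = 0.00308). That call was lost without replicate 1 at day 0 (0.43, adjusted p = 0.0505). Vwf, after its fall at day 1, reached 904 and 849.5 at day 3, above every other library of either arm (log2 1.08 against day 0, SE 0.20, adjusted p = 2.90e-04).

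Of the selectins, Selp, the P-selectin gene of endothelium and platelets, had the largest difference of the 10 at day 3. Its values were 23.8 and 32.1 at day 0, 30.1 and 27.7 at day 1, 678 and 745.5 at day 3, and 21.3 and 15.6 at day 5. The day 3 libraries stood far above the rest, day 1 lay within day 0, and day 5 lay just below both (25.5-fold higher at day 3 than at day 0, log2 4.64, SE 0.63, adjusted p = 1.08e-05). Sele, the E-selectin gene that activated endothelium makes, had 26.4 and 24.0 at day 0, 23.3 and 21.8 at day 1, and 159 and 211 at day 3 (log2 2.81, SE 0.62, adjusted p = 0.00125). At day 5 it had 5.69 normalised reads in one library (4 reads) and 0 in the other, where 3 reads would have been 4.25 normalised reads. Both selectins were low at days 0 and 1, and the 2 day 3 libraries differed from each other in proportion more for Sele than for Selp.

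Of the integrin ligands, Icam1, which endothelium, keratinocytes and leukocytes all make, stood at 817 and 811, 945 and 882, 1261 and 1220, and 428 and 292 at days 0, 1, 3 and 5. The groups did not overlap, and the rise at day 3 was 1.52-fold (log2 0.61, SE 0.15, adjusted p = 0.00275). Vcam1 stood at 305 and 287 at day 3, above both of its day 1 libraries, and at 61.2 and 56.7 at day 5 (log2 1.29 for day 3 against day 0, SE 0.20, adjusted p = 4.58e-05). Ackr1, the atypical chemokine receptor of venular endothelium, stood at 858 and 886 at day 0, 919.7 and 974 at day 1, and 776 and 816 at day 3. Its day 3 libraries lay just below those of day 0, without a call (log2 -0.13, 95% interval -0.37 to 0.11, adjusted p = 0.358). The last exon of Cadm3 lies over the first exons of Ackr1 on the same strand, so reads there may be assigned to either gene. Cadm3 itself stood at 4369 and 4545 at day 0, 4378 and 4263 at day 1, 2816 and 2790 at day 3 and 482 and 476 at day 5. With Topsym, Cadm3 stood at 2605 and 2679, 3852 and 3818, 1453 and 1352, and 224 and 254 on the same days. The part of this overlap in the Ackr1 differences, within either arm or between the arms, was not tested.

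**Figure D2:**
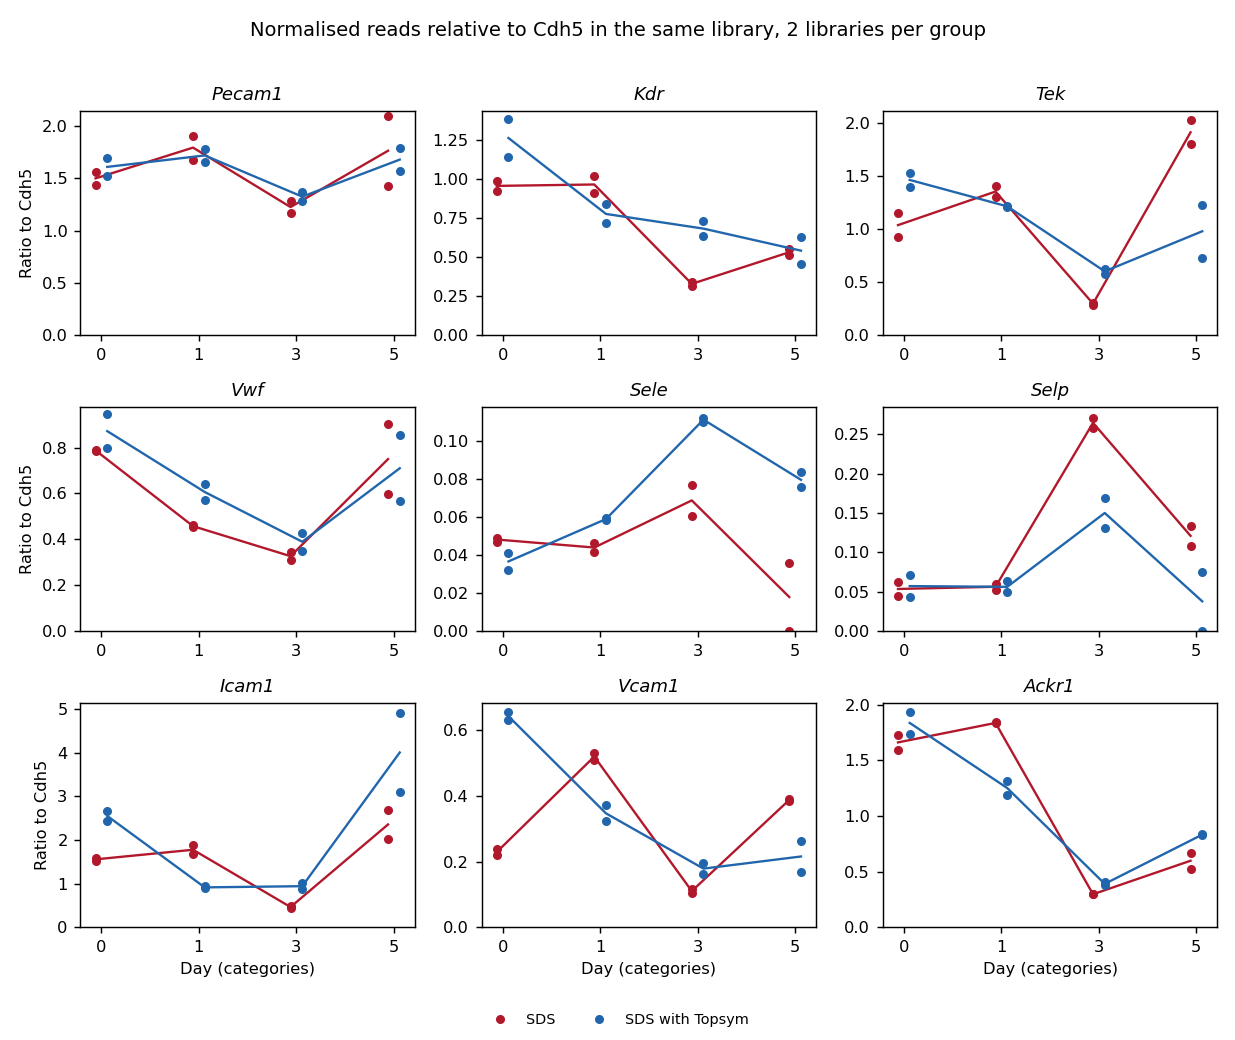
Ratio of each of 9 genes to Cdh5 in the same library (vertical axes, each from 0) by day (evenly spaced categories), red for SDS and blue for SDS with Topsym; points are libraries, lines join means of 2. In SDS alone at day 3, Selp and Sele lie above their day 0 ratios, Pecam1 lies slightly below, and the other 6 lie further below theirs.

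Set against Cdh5 in the same library, the rises at day 3 of SDS alone were unequal. The ratio of Selp to Cdh5 was 0.0442 and 0.0627 at day 0 and 0.258 and 0.271 at day 3, and that of Sele 0.0491 and 0.047 against 0.0605 and 0.0767. Both selectin ratios were higher at day 3 in both libraries. Pecam1 stayed nearest to Cdh5 (1.44 and 1.56 against 1.28 and 1.17). The ratio fell for Ackr1 from 1.59 and 1.73 to 0.295 and 0.297, for Tek from 0.925 and 1.15 to 0.303 and 0.287, for Kdr from 0.921 and 0.986 to 0.338 and 0.315, and for Icam1 from 1.52 and 1.59 to 0.48 and 0.444. These ratios were not tested and show unequal change, since both terms of a ratio can move.

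Across the 16 libraries, Pearson correlations of log2(normalised reads + 1) between pairs of the 10 genes ran from 0.53 (Selp and Ackr1) to 0.99 (Pecam1 and Cdh5). They describe libraries that share groups and depth. Among 12285 other genes with a mean of at least 100, those most like Cdh5 over the 16 libraries were Mmrn2 (r = 0.992), Notch4 (0.989), Aqp1 (0.985), Sema3g (0.981) and Hp (0.976). Those most like Selp were Car4 (0.967), Mcoln2 (0.967), Rnf125 (0.958), Picalm (0.957) and Patl1 (0.955).

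At day 5 of SDS alone, 9 of the 10 genes were lower than at day 0 and none was higher, against 35.8% of all genes lower and 30.7% higher (66.5% called either way). The median difference of the 10 was -1.68, beside -0.09 for all genes. All 10 were lower than at day 3, against 34.5% of all genes lower and 28.9% higher (63.4% called either way). Ackr1 fell from 858 and 886 to 83.9 and 96.4, a 9.67-fold lower mean (log2 -3.26, SE 0.11, adjusted p = 2.02e-13). Kdr was 6.23-fold lower than at day 0 (log2 -2.62, SE 0.17), Cdh5 3.45-fold (log2 -1.78, SE 0.10) and Pecam1 2.96-fold (log2 -1.58, SE 0.13). Tek was lower by less, at log2 -0.90, and its ratio to Cdh5 was 1.8 and 2.03 at day 5, above both day 0 ratios. The log2 difference was -1.88 for Vwf, -1.20 for Icam1, -1.01 for Vcam1 and -3.34 for Sele. Selp, the gene without a call, differed by -0.57 (95% interval -1.91 to 0.76, adjusted p = 0.436) and by -5.21 from day 3.

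**Figure D3:**
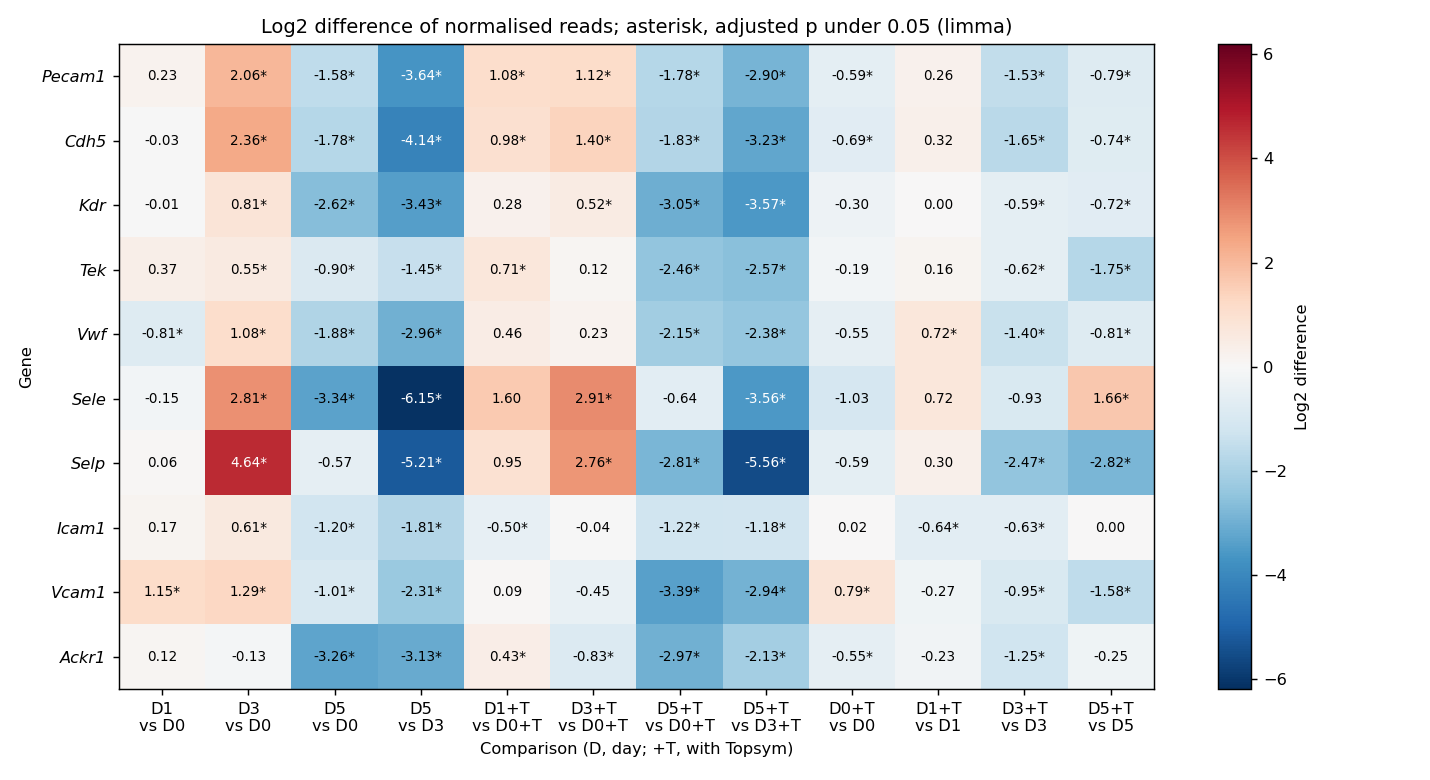
Log2 differences of the 10 genes (rows) in 12 comparisons (columns; D is day, +T is with Topsym), from blue for lower to red for higher, with an asterisk at an adjusted p under 0.05. The column for day 3 against day 0 of SDS alone is red for 9 genes with an asterisk, led by Selp at 4.64, and both columns of day 5 against day 3 are blue for all 10.

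With Topsym, fewer of the 10 genes were called higher at day 3 than in SDS alone. Sele rose by log2 2.91, against 2.81 in SDS alone. Its day 0 libraries were lower than those of SDS alone, at 10.1 and 13.8 against 26.4 and 24.0, without a call. Pecam1, Cdh5, Tek and Ackr1 were already higher at day 1 than at day 0 of the arm. Of these, Pecam1, Cdh5 and Ackr1 started lower at day 0 than in SDS alone. None of the 4 was called between the arms at day 1 in the main limma fit, and Pecam1, Cdh5 and Ackr1 were called when that fit held only the libraries compared. At day 1, 4 of the 10 genes were higher than at day 0 of the same arm and 1 was lower, against 20.3% and 20.5% of all genes (40.8% called either way). At day 3, 5 were higher and 1 was lower, against 27% and 28.2% (55.2% called either way). At day 5, 9 were lower and none was higher, against 37.5% and 32.8% (70.2% called either way). All 10 were lower than at day 3 of the arm, against 35.1% of all genes lower and 27.1% higher (62.2% called either way). The medians of the 10 genes were 0.59, 0.37 and -2.30 at days 1, 3 and 5, beside -0.03, -0.04 and -0.08 for all genes. Between day 0 and day 1 of this arm, adipocyte markers (6 of 6 higher) went from sums of 8150 to 8220 to 27900 to 28100, skeletal muscle markers (6 of 6 higher) from 122000 to 123000 to 380000 to 386000, and pericyte and smooth muscle markers (5 of 10 higher, 2 lower) from 21300 to 21900 to 47600 to 47800. Their part in the day 1 rises was not tested.

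Cdh5 with Topsym stood at 312 and 339 at day 0, 648 and 637 at day 1, 831 and 887 at day 3, and 96.8 and 84.7 at day 5. The groups did not overlap, and both differences were called (log2 0.98 at day 1, SE 0.10, adjusted p = 5.53e-07, and 1.40 at day 3, adjusted p = 3.48e-09). Pecam1 stood at 474.5 and 575, 1078 and 1137, 1142 and 1137, and 174 and 133. It was higher at day 1 (log2 1.08, SE 0.13, adjusted p = 5.55e-06) and at the same level at day 3 (log2 1.12 against day 0), where the libraries of the 2 days lay next to each other.

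Kdr with Topsym stood at 429 and 386, 462 and 532, 604 and 561, and 60.5 and 38.3 at days 0, 1, 3 and 5. It was called at day 3 (log2 0.52, SE 0.17, adjusted p = 0.0148), and the call was lost without replicate 2 at day 0 (0.44, adjusted p = 0.0968) or replicate 1 at day 3 (0.46, adjusted p = 0.0934) of the arm. Tek stood at 476.5 and 473, 784 and 775, 518 and 512, and 70.6 and 104. Its highest libraries were thus those of day 1 (log2 0.71, SE 0.14, adjusted p = 4.74e-04), and at day 3 it differed from day 0 by 0.12 without a call. Vwf stood at 294.5 and 271, 416 and 363, 355 and 311, and 82.7 and 47.9. Its day 1 and day 3 libraries were above those of day 0 by 0.46 and 0.23 on the log2 scale without a call, and edgeR's count test called the first (0.46, adjusted p = 0.00978).

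Selp with Topsym stood at 22.1 and 14.6, 31.9 and 40.2, 109 and 149.5, and 0 and 6.39 at days 0, 1, 3 and 5, where the value of 6.39 is 4 reads and 3 reads in the library at 0 would have been 6.05. It rose 7.03-fold at day 3 (log2 2.76, SE 0.63, adjusted p = 0.00133). Sele stood at 10.1 and 13.8, 37.6 and 37.9, 91.7 and 99.2, and 8.07 and 6.39 on the same days. Both day 1 libraries were above those of day 0 without a call in limma (log2 1.60, SE 0.62, adjusted p = 0.0512) and with one in edgeR (1.63, adjusted p = 0.00191), and the rise at day 3 was 8.0-fold (log2 2.91, SE 0.62, adjusted p = 7.68e-04).

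Icam1 with Topsym stood at 831 and 822.5, 576 and 596, 838 and 771.5, and 300.5 and 415. It was lower at day 1 than at day 0 (log2 -0.50, SE 0.15, adjusted p = 0.0133), a call that was lost without either day 0 library of the arm (adjusted p = 0.0567 and 0.0513) or replicate 1 at day 1 (-0.47, adjusted p = 0.0735). Vcam1 stood at 204 and 214, 240.5 and 206, 134 and 173, and 16.1 and 22.4, and was called only at day 5 among these days against day 0 (log2 -3.39, SE 0.20, adjusted p = 1.73e-10). At day 3 its difference was -0.45 without a call in limma, and edgeR called it (-0.41, adjusted p = 0.033), as did limma without replicate 2 at day 3 of the arm (-0.63, adjusted p = 0.0466). Ackr1 stood at 602 and 591, 849.8 and 761, 313 and 357, and 80.7 and 70.3. It rose at day 1 (log2 0.43, SE 0.11, adjusted p = 0.00535) and fell at day 3 (log2 -0.83, SE 0.11, adjusted p = 7.43e-06), and the day 1 call was lost without replicate 1 of that group (0.35, adjusted p = 0.0743).

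Direct comparison of the arms called the most genes at day 3. There 9 of the 10 genes were lower with Topsym and none was higher. Of all genes, 22.9% were lower and 20.8% higher (43.8% called either way). The median of the 10 genes was -1.10, beside -0.04 for all genes. Tek, Vcam1, Selp and Kdr differed by more at day 5 (-1.75, -1.58, -2.82 and -0.72). Selp was 5.51-fold lower (109 and 149.5 against 678 and 745.5, log2 -2.47, SE 0.63, adjusted p = 0.00417). Cdh5 was 3.13-fold lower (log2 -1.65, SE 0.10, adjusted p = 8.12e-10), Pecam1 2.89-fold (log2 -1.53, SE 0.13) and Vwf 2.63-fold (log2 -1.40, SE 0.20). Ackr1 was 2.38-fold lower (log2 -1.25, SE 0.11, adjusted p = 1.04e-07), although it had not risen in SDS alone. Cadm3, which overlaps Ackr1, was also lower there, at 1453 and 1352 against 2816 and 2790. The log2 difference was -0.95 for Vcam1, -0.63 for Icam1, -0.62 for Tek and -0.59 for Kdr. The Kdr call was lost without replicate 1 of SDS alone (-0.57, adjusted p = 0.0511) or replicate 2 of Topsym (-0.54, adjusted p = 0.0668). In all of these 9 genes both Topsym libraries lay below both libraries of SDS alone. Sele, at 91.7 and 99.2 against 159 and 211, did not overlap either, but was not called in limma (log2 -0.93, 95% interval -2.26 to 0.39, adjusted p = 0.255), and was called by edgeR (-0.91, adjusted p = 0.0144).

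The arms also differed at day 0. There 3 genes were lower with Topsym and 1 was higher, against 11.2% and 10.8% of all genes (22% called). Cdh5 was 1.61-fold lower (log2 -0.69, SE 0.10, adjusted p = 6.81e-05), Pecam1 1.50-fold (log2 -0.59, adjusted p = 0.00394) and Ackr1 1.46-fold (log2 -0.55, adjusted p = 0.00176). Vcam1 was 1.74-fold higher (204 and 214 against 119 and 121, log2 0.79, SE 0.20, adjusted p = 0.00845). The Pecam1 call was lost without replicate 1 of Topsym (-0.45, adjusted p = 0.061), and the Vcam1 call without replicate 1 of SDS alone (0.78, adjusted p = 0.0529) or replicate 2 of Topsym (0.76, adjusted p = 0.0615). Vwf differed by -0.55 without a call in limma, and edgeR called it (-0.54, adjusted p = 0.00478). Sele differed by -1.03 without a call (adjusted p = 0.287), and limma called it without the day 5 libraries (adjusted p = 0.0116). In the same libraries the summed macrophage markers (7 genes) were 46200 to 46700 with Topsym against 18200 to 18500 without, red cell markers (5 genes) 9700 to 11000 against 2400 to 3070, and skeletal muscle markers (6 genes) 122000 to 123000 against 331000 to 333000. Pericyte and smooth muscle markers summed to 21300 to 21900 with Topsym against 41100 to 41300 without. Adipocyte markers summed to 8150 to 8220 against 17500 to 18800, and fibroblast markers to 418000 to 425000 against 299000 to 308000. The part of these lists in the day 0 gap was not tested.

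At day 1, 2 of the 10 genes were called between the arms, 1 higher and 1 lower, against 5.51% of all genes higher and 4.29% lower (9.8% called either way). Vwf was higher with Topsym (416 and 363 against 232 and 239, log2 0.72, SE 0.20, adjusted p = 0.0324), and the call was lost without any 1 of these 4 libraries (0.62 to 0.82, adjusted p = 0.094 to 0.236). Icam1 was lower (576 and 596 against 945 and 882, log2 -0.64, SE 0.15, adjusted p = 0.0105), and its call was lost without either library of Topsym (adjusted p = 0.0886 and 0.0616) or without replicate 1 of SDS alone (adjusted p = 0.1). Cdh5 differed by 0.32 without a call in limma (adjusted p = 0.0537), and edgeR called it (0.30, adjusted p = 0.0195). When limma's fit held only the libraries compared, Cdh5 (adjusted p = 0.013) and Pecam1 (0.26, adjusted p = 0.0142) were called higher with Topsym. In that fit Ackr1 was called lower (-0.23, adjusted p = 0.0431).

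At day 5, 7 genes were lower and 1 was higher with Topsym, against 24.2% and 22.6% of all genes (46.8% called either way). Tek showed the clearest gap, at 70.6 and 104 against 287 and 293, 3.33-fold lower (log2 -1.75, SE 0.14, adjusted p = 3.83e-08). Vcam1 was 3.06-fold lower (log2 -1.58, SE 0.20, adjusted p = 8.29e-06), and Pecam1, Cdh5, Kdr and Vwf differed by -0.81 to -0.72 on the log2 scale. When the fit held these 4 libraries alone, the calls of Cdh5 (adjusted p = 0.0507), Kdr (adjusted p = 0.167), Vwf (adjusted p = 0.103) and Selp (adjusted p = 0.0756) were lost, and that of Vwf was also lost without replicate 2 of Topsym (-0.43, adjusted p = 0.0579). Selp was lower at log2 -2.82, a difference that rests on 0 and 4 reads in the Topsym libraries against 15 and 11 in the others. The higher value was Sele, on 4 reads in each library with Topsym against 4 and 0 without (log2 1.66, SE 0.62, adjusted p = 0.0381). It was not called by edgeR (adjusted p = 0.246) or DESeq2 (adjusted p = 0.257), nor without replicate 2 of SDS alone (0.29, adjusted p = 0.61). Even numbers made up 69.9 to 76.8% of recovered counts from 1 to 20, so that 4 reads need not be 4 separate fragments.

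The change from day 0 was also compared between the arms, as the change with Topsym minus the change without. At day 1 this test called 3 of the 10 genes higher and 2 lower, against 9.18% and 8.06% of all genes (17.2% either way), with Cdh5 at 1.01 (SE 0.14, adjusted p = 7.36e-05). That value is the gap between the arms at day 1 (0.32, without a call) less the gap at day 0 (-0.69), and for Pecam1 (0.26, without a call, and -0.59) and Vcam1 (-0.27, without a call, and 0.79) most of the size likewise came from day 0. At day 3 it called 6 lower and none higher, against 19.5% of all genes in each direction (39% either way), Vcam1 most (-1.75, SE 0.28, adjusted p = 1.07e-04). Pecam1, Cdh5 and Vwf differed from day 0 by less with Topsym. Vcam1 and Icam1 rose in SDS alone (1.29 and 0.61) and with Topsym differed by -0.45 and -0.04 without a call. Ackr1 fell with Topsym (-0.83) and was not called in SDS alone (-0.13). For Selp the day 3 value was -1.88 without a call in limma (95% interval -3.77 to 0.01, adjusted p = 0.111), and edgeR called it (-1.79, adjusted p = 0.00119). For Sele it was 0.10 (95% interval -1.77 to 1.97), with rises of 2.81 and 2.91 in the 2 arms. Between the arms Sele differed by -0.93 at day 3 and by -1.03 at day 0, both without a call in limma. At day 5 it called 1 higher and 2 lower, against 17.3% and 17.7% of all genes (34.9% either way), Tek (-1.56, SE 0.19, adjusted p = 9.28e-06), Vcam1 (-2.38, SE 0.28, adjusted p = 6.44e-06) and Sele.

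The other genes of blood endothelium, a list of 22, moved on the same days. This list and those that follow were chosen with earlier results of these data known. Their counts therefore describe the data and are no independent support. At day 3 of SDS alone 18 were higher and 1 was lower, at a median of 1.58, where 25.4% of all genes were higher and 24.2% lower. Cd93, a surface protein of endothelium that myeloid cells also carry, rose from 220.3 ± 24.8 to 2579 ± 81.6 (log2 3.55), Plvap, which forms the diaphragms of fenestrated vessels, from 774 ± 3.61 to 3595 ± 61 (log2 2.21), and Esam, a junction protein, from 179 ± 14.8 to 771 ± 18.4. Sox7, a transcription factor, was the lower one (-0.57). At day 5 of SDS alone 21 were lower, led by Sox18 at -4.17, and Sox7 was higher (0.54), against 35.8% of all genes lower and 30.7% higher. With Topsym 13 were higher and 3 lower at day 1 (20.3% and 20.5% of all genes), 13 and 4 at day 3 (27% and 28.2%), and 1 and 19 at day 5 (32.8% and 37.5%). Between the arms at day 3, 21 were lower with Topsym and 1 was higher (median -1.34, Cd93 at -2.61), against 22.9% and 20.8% of all genes.

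**Figure D4:**
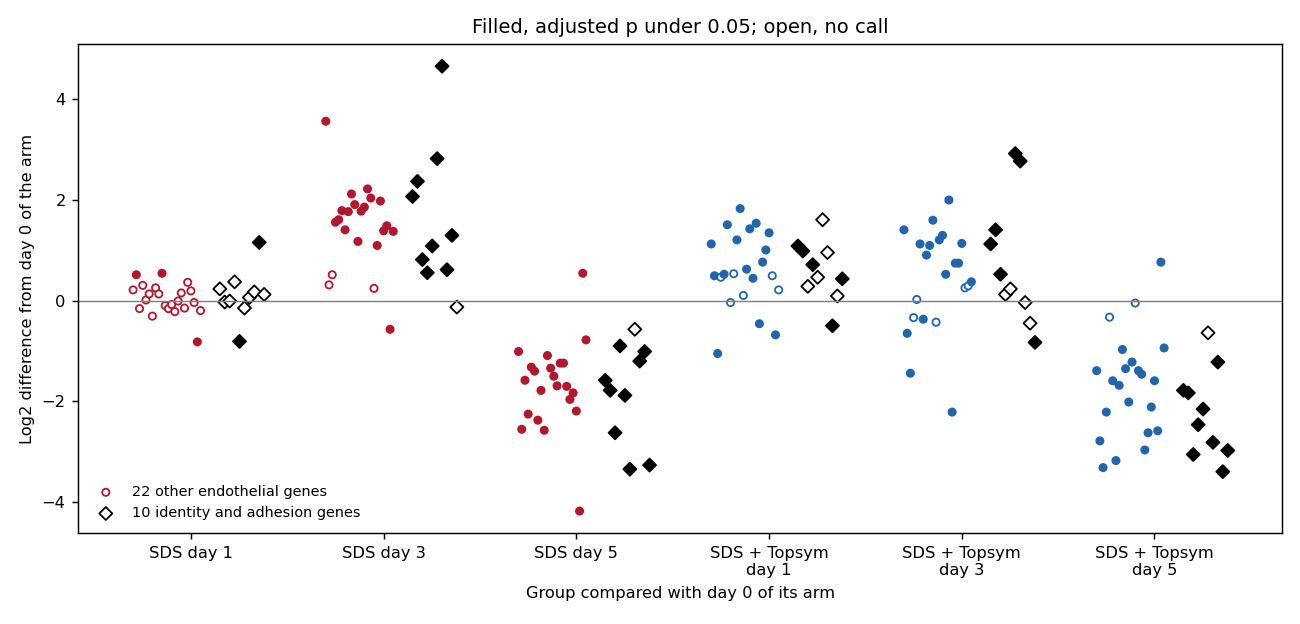
Log2 difference from day 0 of the same arm (vertical axis) for 22 other endothelial genes (circles, red for SDS and blue for SDS with Topsym) and the 10 identity and adhesion genes (black diamonds), at each later day (horizontal axis). Filled marks had an adjusted p under 0.05; at day 3 of SDS alone 18 circles and 9 diamonds are filled above 0, and at day 5 21 circles and 9 diamonds are filled below it.

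Genes of particular vessel types were less uniform, and their counts at day 3 of SDS alone are again to be read against 25.4% of all genes higher and 24.2% lower. Of 13 arterial, capillary and venous genes, 6 were higher and 2 lower at day 3 of SDS alone, led by the carbonic anhydrase gene Car4, from 18.9 ± 0.67 to 2593 ± 15.9 (log2 7.03). With Topsym at day 3, Car4 stood at 178 ± 5.28. Of 8 rows of lymphatic endothelium (7 genes, with Ccl21a on 2 rows), 2 were higher and 2 lower at day 3, a share like that of all genes, and 6 were lower and none was higher at day 5, where 35.8% of all genes were lower. Of 10 genes of endothelial junctions, 4 were higher and 1 lower at day 3, with Esam again first and Ptprb, a phosphatase that acts on VE-cadherin and Tie2, at 2.03. The summed junction genes did not fall at day 5. They stood at 12600 to 12900 against 11000 to 11200 at day 0, and with Topsym at 13400 to 13600 against 10300 to 10600. The arterial, capillary and venous genes summed to 3900 to 4340 at day 5 against 6460 to 6660 at day 0. With Topsym these sums were 4080 to 4150 against 4630 to 4770.

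Ligands of the vessel receptors rose at day 3 of SDS alone for 3 of 7 and fell for 1, beside 25.4% and 24.2% of all genes. Angpt2, the angiopoietin that endothelium releases on activation, rose from 96.8 ± 2.43 to 487 ± 26.6 (log2 2.32) and stood at 79.5 ± 7.04 at day 3 with Topsym (log2 -2.60 between the arms). Vegfa, the chief ligand of Kdr, rose from 1290 ± 1.91 to 4265 ± 27.5 (log2 1.72) without Topsym, and by log2 1.74 with it. Of 13 measured cytokines and receptors that act on endothelium, 12 were higher and none was lower at day 3 of SDS alone, led by Osm (log2 6.20), Il6 (5.39) and Il1b (5.31), and 12 were lower with Topsym than without at that day, where 22.9% of all genes were lower. Of 12 genes of the NF-kB pathway and its feedback, 10 were higher and none was lower at day 3 of SDS alone, with Birc3 at 1.35 and Tnfaip3 at 1.18, and 10 were lower with Topsym at that day.

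Leukocyte partners of the adhesion genes also rose. Of 12, 7 were higher and 2 lower at day 3 of SDS alone, beside 25.4% and 24.2% of all genes. Itgam, an integrin chain that binds Icam1, rose from 354 ± 10.2 to 3921 ± 212 (log2 3.46), and Itgb2, its partner chain, rose by 2.14 on the log2 scale. Between the arms at day 3, 9 were lower with Topsym and 1 was higher (22.9% and 20.8% of all genes), with Itgam at -3.14.

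**Figure D5:**
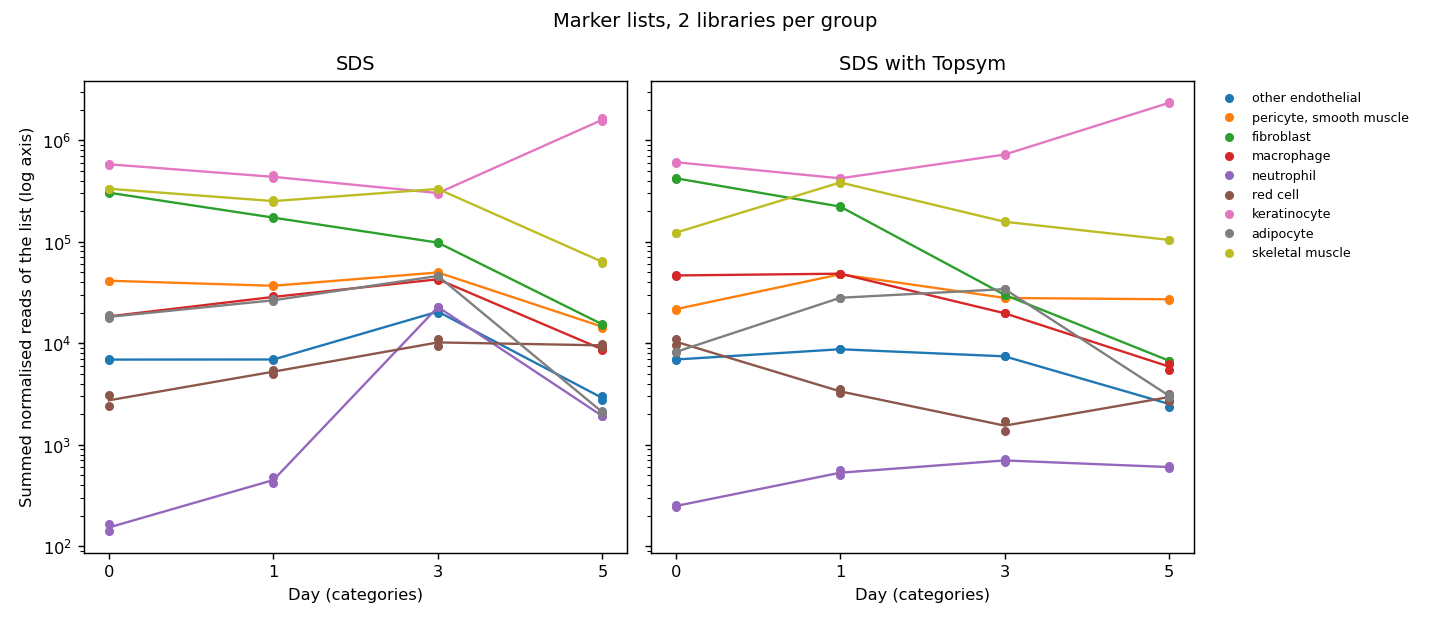
Summed normalised reads of each marker list (vertical axis, log scale) by day (evenly spaced categories), for SDS (left) and SDS with Topsym (right); points are libraries and lines join the means of 2. The neutrophil sum in SDS alone runs from 140 to 166 at day 0 to 22500 to 22900 at day 3, and the fibroblast sum falls to 15200 to 15400 at day 5.

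Markers of other cell types also moved on these days, in both directions. Their counts at day 3 of SDS alone stand beside 25.4% of all genes higher and 24.2% lower. At day 3 of SDS alone neutrophil markers (6 of 6 measured higher) summed to 22500 to 22900 against 140 to 166 at day 0, and to 680 to 719 with Topsym. Macrophage markers (7 of 7 higher) summed to 42000 to 43200 at day 3, and red cell markers (5 of 5 higher) to 9340 to 11000. Fibroblast marker sums fell from 299000 to 308000 at day 0 to 97200 to 98400 at day 3. Keratinocyte marker sums fell from 574000 to 583000 to 297000 to 305000. With Topsym, fibroblast sums were 418000 to 425000 at day 0 and 29700 to 30100 at day 3. Keratinocyte sums with Topsym were 598000 to 615000 and 716000 to 727000. Adipocyte markers (4 of 6 higher at day 3 of SDS alone, none lower) summed to 17500 to 18800, 25800 to 27100, 45500 to 46400 and 2040 to 2130 at days 0, 1, 3 and 5 of SDS alone, and to 8150 to 8220, 27900 to 28100, 33900 to 34200 and 2970 to 3080 with Topsym. They were thus highest at day 3 and lowest at day 5 in both arms, as Cdh5 was. Leukocytes are known to carry Pecam1 and Icam1 as well. The part of these cell types in the rises was not tested. Platelets are known to hold Selp and Vwf, and of 7 platelet markers the defining Gp6, Gp9 and Gp1bb had group means of at most 4.41 in every group, while Pf4, which macrophages can also make, rose from 525 ± 12.4 to 3913 ± 59.2, and the part of platelets was not tested.

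At day 5 fibroblast markers (7 of 7 lower in both arms) summed to 15200 to 15400 without Topsym and 6690 to 6720 with it, against 299000 to 308000 and 418000 to 425000 at day 0. Of 10 pericyte and smooth muscle markers 8 were lower without Topsym and 7 were lower and 2 higher with it. Counts at day 5 stand beside 35.8% of all genes lower and 30.7% higher without Topsym. With it, 37.5% were lower and 32.8% higher. Keratinocyte markers (7 genes) summed to 1540000 to 1640000 and 2320000 to 2350000 at day 5 against 574000 to 583000 and 598000 to 615000 at day 0. Adipocyte markers were lower for 6 of 6 in both arms. Skeletal muscle markers were lower for 6 of 6 without Topsym, from 331000 to 333000 at day 0 to 61200 to 65100, and for 4 of 6 with it, with 1 higher. Macrophage markers were lower for 7 of 7 in both arms, at 8660 to 8690 without Topsym and 5500 to 6240 with it. The part of these shifts in the falls of the 10 genes at day 5 was not tested.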

How the data were processed

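RNA of whole skin was made into libraries with a strand-specific kit, per the labels' protocols. Per the submitters' processing notes, Trim Galore 0.6.7, HISAT2 2.2.1 (mm10), featureCounts 2.0.3 and DESeq2 2.11.40.8 were used. The strand setting of the counting was not given in the sources used here. Genes on the opposite strand overlap Cdh5, Selp, Icam1 and Vcam1, and those with a row reached at most 12.3 normalised reads. The deposited values are a signal, read counts divided by a size factor of the library. All values of a library (100%) were multiples of 1 step to within 1e-04, and reads were recovered from them, 15199656 to 32066246 per library.

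The 19189 genes that reached 10 in 2 or more libraries were fitted as log2(value + 1) with limma 3.58.1 in R 4.3.3, all 8 groups together (8 residual degrees of freedom), with a variance trend, and p-values were adjusted by Benjamini and Hochberg over all genes in each of 15 comparisons. The fit was tested on simulated data. Positions came from GENCODE M21, on GRCm38. The members and lists were chosen with earlier results of these data known. All 10 members were named, and of each other list at most the 3 largest differences past the threshold, plus Sox7 at day 5, chosen after its value was seen, and markers at 0. A single gene picked by this rule is left out. Likeness took the 5 highest Pearson correlations. The series' design text describes another experiment on sorted cells and was not used. Samples with the same replicate number did not deviate together. Over 28 pairs of groups the correlation of their deviations was -0.149 to 0.168 (median -0.00212), and 2 were over 0.1.

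Other settings were TMM factors and the count test of edgeR 4.0.16, DESeq2 1.42.0 on recovered reads, a pseudocount of 4, no filter on low values, the replicate number as a block, only the libraries compared, the omission of each library, and a log2 size of 1 or more as an added condition. Scaling to total reads (CPM) and leaving out the day 5 libraries were added after seeing the data.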

Additional observations from a re-analysis of the deposited data

Results flagged for a closer look

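For 8 of the 10 genes the change from day 0 differed between the arms at 1 or more days, by limma's test of the difference itself (log2 change with Topsym minus log2 change without). Of all genes, 17.2%, 39% and 34.9% were called by this test at days 1, 3 and 5. The share of all genes called at any of these days was not computed, so the 8 cannot be set against it. At day 1 this difference was 0.85 for Pecam1, 1.01 for Cdh5 and 1.27 for Vwf, and -0.66 for Icam1 and -1.06 for Vcam1. Pecam1 and Cdh5 were higher with Topsym and not called without it, Vwf had fallen without it, Icam1 was lower in the Topsym arm and not called in SDS alone, and Vcam1 rose in SDS alone and was not called with Topsym. Each value is the gap between the arms at day 1 less the gap at day 0. For Cdh5 these gaps were 0.32, without a call, and -0.69, for Pecam1 0.26, without a call, and -0.59, and for Vcam1 -0.27, without a call, and 0.79, so that most of the size came from the gap at day 0. The Icam1 value was not called without any 1 of the 8 libraries in it (adjusted p = 0.065 to 0.133), nor the Vcam1 value without replicate 1 at day 1 of SDS alone (adjusted p = 0.0514), replicate 2 at day 0 of Topsym (adjusted p = 0.0548) or replicate 2 at day 1 of Topsym (adjusted p = 0.079).

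At day 3 it was -0.94 for Pecam1, -0.96 for Cdh5, -0.85 for Vwf, -0.65 for Icam1, -1.75 for Vcam1 and -0.70 for Ackr1. The Vwf value was lost without any of 6 of its 8 libraries, at adjusted p = 0.0547 to 0.101, and the Icam1 value without any of 5, at adjusted p = 0.0514 to 0.0811. Each value is the gap between the arms at day 3 less the gap at day 0. For Pecam1 these gaps were -1.53 and -0.59, for Cdh5 -1.65 and -0.69, and for Ackr1 -1.25 and -0.55, so that the gap at day 0 made the value smaller in size. For Vcam1 they were -0.95 and 0.79, and the gap at day 0 made it larger.

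At day 5 it was -1.56 for Tek, 2.70 for Sele and -2.38 for Vcam1. Tek stood at 70.6 and 104 with Topsym against 287 and 293 without, and Vcam1 at 16.1 and 22.4 against 61.2 and 56.7. The Sele value rests on 4 and 0 reads at day 5 without Topsym and 4 in each library with it, and was not called by edgeR (2.34, adjusted p = 0.0657) or DESeq2 (2.39, adjusted p = 0.0597). It was also not called without 5 of its 8 libraries (adjusted p = 0.0528 to 0.0771), among them replicate 2 at day 5 of SDS alone, without which it was 1.33.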

How the results depend on the processing

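No difference of the 10 genes that was called in either fit changed sign, and 27 of 2009 differences changed sign without a call, all at 0.27 or less in size. TMM factors and the replicate block changed none of 150 calls (9 genes called with the replicate block at day 3 of SDS alone, 9 at day 3 between the arms), and the replicate numbers did not pair the samples. Requiring a log2 difference of at least 1 as well left 1 gene at day 1 of SDS alone, 1 at day 1 with Topsym, 0 between the arms at day 0, 0 at day 1, 5 at day 3 and 4 at day 5, and 3 and 1 in the differences of changes at days 1 and 3. The share of all genes that met this added condition was not computed. Without the day 5 libraries (chosen after seeing the data) 4, 9, 7 and 4 genes were called at day 1 of SDS alone, at day 1 with Topsym, and between the arms at days 0 and 1. Calls over all genes also increased, to 6536, 9317, 5572 and 2907 of 18653, from 5037, 7830, 4230 and 1881 of 19189 in the main fit. With only the libraries compared 4, 8, 5 and 3 were called at day 1 of SDS alone, at day 1 with Topsym, and between the arms at days 1 and 5, where Sele did not pass the filter. Over all genes the calls were 6181 of 17243, 9377 of 17365, 3313 of 17092 and 6314 of 16477. The last of these compares with 8976 of 19189 in the main fit. At day 1 with Topsym edgeR and DESeq2 each called 8, and between the arms at day 1 DESeq2 called 4 and the fit with no filter 1. Over all genes, edgeR called 8727 and DESeq2 8465 of 19189 at day 1 with Topsym. Between the arms at day 1, DESeq2 called 2642 of 15468 and the fit with no filter 1634 of 32078. Scaled to total reads (chosen after seeing the data) 5 were called in the difference of changes at day 5. Over all genes 7174 of 19219 were called there, against 6701 of 19189 in the main fit. The cause of these shifts was not tested.

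With each library left out in turn, the genes called were 2 to 2 at day 1, 8 to 9 at day 3 and 9 to 9 at day 5 of SDS alone, 3 to 5, 5 to 7 and 9 to 9 with Topsym, and 10 to 10 for day 5 against day 3 in each arm. Between the arms they were 3 to 4, 0 to 1, 8 to 9 and 6 to 9 at days 0, 1, 3 and 5, and in the differences of changes 3 to 4, 4 to 6 and 2 to 4 at days 1, 3 and 5. Depth limits Sele and Selp most, which had 0 to 15 reads in each day 5 library.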
